A study of Mus musculus with 8 samples.

Results

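Distal tubule and collecting duct cells, the epithelial cells of the last segments of the nephron, made up 1114 of the 90855 mouse kidney cells that passed the cell limits, out of 120281 barcodes in all. The cells were chosen by their counts. Each had more than 300 detected genes, fewer than 20000 counts and less than 25% mitochondrial counts, and held at least 3 counts over the 9 genes Slc12a3, Calb1, Trpm6, Aqp2, Scnn1b, Scnn1g, Hsd11b2, Atp6v1g3 and Slc26a4, with at least 2 of these detected. Cells with more than 2 counts of the loop of Henle genes Slc12a1 and Umod, more than 1 count of the proximal tubule genes Lrp2 and Slc34a1, more than 1 count of the macrophage genes C1qa, C1qb and C1qc, or more than 1 count of Flt1, Pax5 and Themis were left out. Because the levels of these genes selected the cells, they are given below only as a description. Just inside the limit, 111 members had exactly 3 marker counts and a median of 2383 counts in all, and just outside it 254 cells had 2 marker counts of 2 genes and a median of 2381.

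The cells came from male C57BL/6 mice in 7 conditions, each of them 1 pool of kidney cells from 3 mice. Uninjured control kidneys were left untouched, and the other conditions were ischemia-reperfusion injury (IRI) of the left kidney with the opposite kidney in place, under vehicle (DMSO) or entospletinib, an inhibitor of spleen tyrosine kinase (SYK), with kidneys taken on day 1, 7 or 14. Every pool was sorted for live leukocytes by exclusion of SYTOX Blue and by scatter, so the epithelial cells described here are those that remained in a leukocyte gate, and each share is a share of sorted cells and not of the kidney. There was 1 pool per condition, so no comparison has a replicate check or a p-value. The 8 sublibraries, each holding cells of all conditions, are portions of the same pools, and SDs over them are technical.

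The distal convoluted tubule reabsorbs sodium chloride through the thiazide-sensitive cotransporter encoded by Slc12a3, under control of the WNK kinases, and reabsorbs magnesium through Trpm6. The connecting tubule that follows reclaims calcium, which enters through Trpv5, is buffered by calbindins (Calb1, S100g) and leaves through the sodium-calcium exchanger Slc8a1. In the collecting duct, principal cells take up water through aquaporins and sodium through the epithelial channel (Scnn1a, Scnn1b, Scnn1g), whereas intercalated cells move acid and base with proton pumps and the exchangers Slc26a4, Slc4a1 and Slc4a9.

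The members held 154072 to 1205695 transcript counts per condition, with medians of 1578 to 5756 counts per cell. All 120281 barcodes were distinct, and 13712 combinations of wells occurred in more than 1 sublibrary. A feature of the barcodes bears on the results and is given first. A barcode in this assay is the combination of a sublibrary and the wells of 3 rounds, and 213 barcodes held at least 100000 counts, of which 104 belonged to vehicle day 1. Of the members, 273 (24.5%) shared a sublibrary and their first 2 or last 2 wells with such a very large barcode, against 2.07% of all cells within the limits. In vehicle day 1 it was 224 of 349 members (64.2%), against 4.88% of all its cells, and in entospletinib day 1 14.8% of the members. In vehicle day 1, 5 pairs of wells held 66 to 94 barcodes each, where the median pair held 3, and these 5 pairs held 180 members, while no other pair held more than 5. The vehicle day 1 members beside very large barcodes had a median of 1091 counts, and the others a median of 6521. The origin of these barcodes was not tested. Most day 1 shares, changed day 1 counts of gene lists and several genes are therefore also given without barcodes beside very large barcodes. This left 841 members. List counts at days 7 and 14 changed by at most 1 gene in either direction and are mostly given for all members only. Levels at day 1 are those of all members where nothing else is said. Of the gene ratios past 2-fold at day 1 that were recomputed, 53 of 59 in vehicle over control were past 2-fold in the same direction without these barcodes. In entospletinib over vehicle it was 28 of 30. These ratios do not cover every listed gene, and some list counts given below fell by more.

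**Figure D1:**
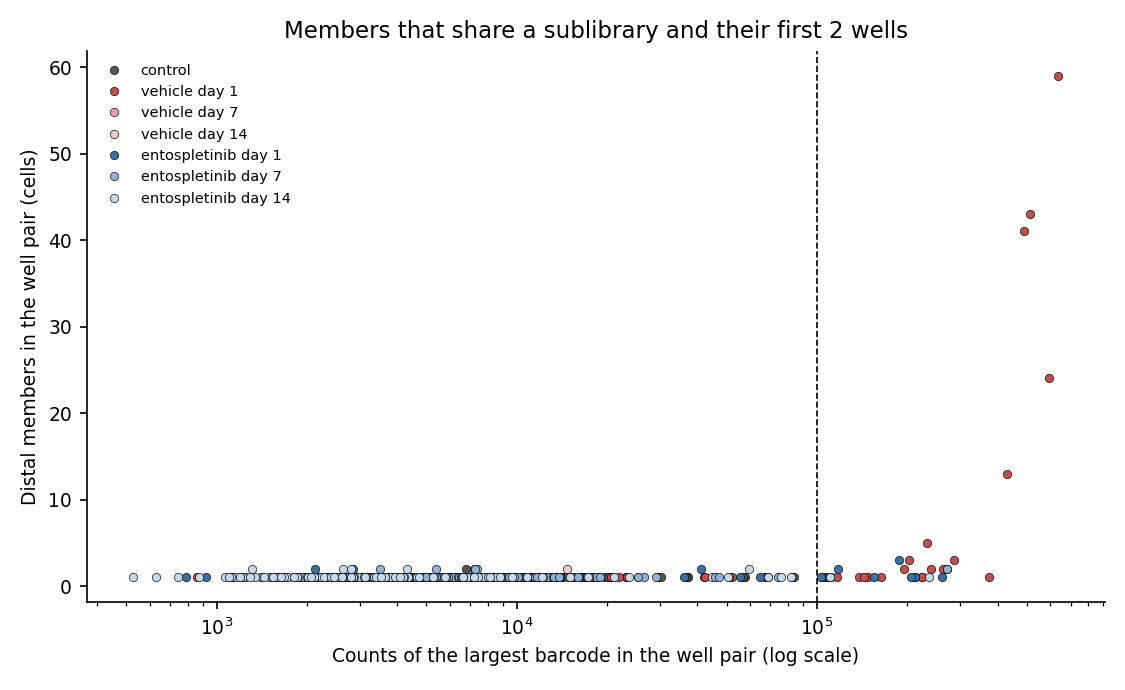
Members per pair of wells (vertical axis) against the counts of the largest barcode in that pair (horizontal axis, log scale), with the dashed line at 100000 counts. The 5 pairs with the most members, 180 in all, have largest barcodes of 431443 to 638283 counts.

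The selected cells carried the genes of distal segments that the selection had not used. For comparison, loop of Henle cells held at least 3 counts of Slc12a1 and Umod, and proximal tubule cells at least 3 counts of Lrp2 and Slc34a1. Both met the other limits on genes that left cells out of the members. Compared with loop of Henle and proximal tubule cells together, the largest ratios among genes of at least 100 CPM in the members were those of Atp6v1c2, a proton pump subunit (27.2-fold), Adgrf5 (26.2-fold), Frmpd4 (24.9-fold) and Slc8a1 (24.6-fold, 10424 against 424 CPM, counts of the summed cells scaled to the same total in every condition). Trpv5 (22.7-fold), the ammonia transporter Rhcg (19.99-fold), the basolateral water channel Aqp3 (19.4-fold), the transcription factor Gata3 (12.1-fold) and S100g (11.3-fold) were also among the 20 genes with the highest ratios. Of the loop of Henle markers, the tight junction gene Cldn16 was at 0.618 CPM in members and 45.8 CPM in loop of Henle cells, while the prostaglandin receptor gene Ptger3 was at 37.1 and 184 CPM and Umod, which the selection used, at 64.7 and 2583 CPM. The fibroblast gene Col1a1 was at 1.65 CPM in members. Adgrf5 was also at 133 CPM over all cells that were not members, and is known in endothelium as well as in intercalated cells. These ratios describe cells that were chosen by genes of the same segments, and no test was made of them.

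Each member was placed by the marker group that led its counts, giving 650 distal convoluted-led cells (Slc12a3 and Trpm6, 58.3%), 233 principal-led cells (Aqp2, Scnn1b, Scnn1g and Hsd11b2, 20.9%), 139 intercalated-led cells (Atp6v1g3 and Slc26a4, 12.5%) and 63 Calb1-led cells (5.66%), with 29 ties. The lead was 0 or 1 count in 120 members (10.8%). Genes outside the rule followed these groups. In distal convoluted-led cells Klhl3, an adaptor for the breakdown of WNK kinases, was at 1089 CPM against 111 to 420 CPM in the other groups, and Egf, Uroc1, Stk32b, Prkd1 and the nuclear receptor Esrrb were 20.1- to 65.4-fold above the other members. In principal-led cells Aqp3 was at 644 CPM and Fxyd4 was 35.1-fold above the other members. Intercalated-led cells held 2322 CPM of Slc4a9, 1245 CPM of the proton pump subunit Atp6v0d2 and 276 CPM of Foxi1, the transcription factor of intercalated cells, and their leading genes were the insulin receptor-related receptor Insrr (130-fold) and Lsamp (114-fold). In Calb1-led cells Slc8a1 was at 26100 CPM, S100g at 1255 CPM and the kallikrein Klk1 at 4314 CPM. The leading genes of that last group were less even: Siglech and Irf8, genes of plasmacytoid dendritic cells, came from 3 and 4 of its 63 cells, and 28 of 51 Siglech counts lay in 1 cell. These cells are called by their leading marker and given no cell type name.

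The mix of groups differed between conditions. Distal convoluted-led cells were 58.3% of the members in control kidneys, 75.1%, 38.5% and 46.7% in vehicle at days 1, 7 and 14, and 42.3%, 52.3% and 53.3% in entospletinib at the same days. The vehicle day 1 value rested on the barcodes beside very large barcodes, and was 48.8% without them. Principal-led cells were 14.4% of control members and 38.7% (29 of 75) of vehicle day 14 members, with exact 95% Clopper-Pearson intervals of 9.02 to 21.3% and 27.6 to 50.6%. Intercalated-led cells ranged from 6.02% in vehicle day 1 (11.2% without the barcodes beside very large barcodes) to 21.5% in entospletinib day 7. Calb1-led cells were 23 of 139 members in control (16.5%), 2 of 349 in vehicle day 1, 5 of 26 in vehicle day 7 (19.2%, 6.55 to 39.4%) and 0 of 75 in vehicle day 14, a count that allows up to 4.80%, while they were 7 of 142, 18 of 214 and 8 of 169 members in entospletinib at days 1, 7 and 14. Among members with a lead of at least 2 counts, the Calb1-led share was 1.64% in entospletinib day 1 and 0.658% in entospletinib day 14. These intervals, like all others given here, cover counting error only.

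**Figure D2:**
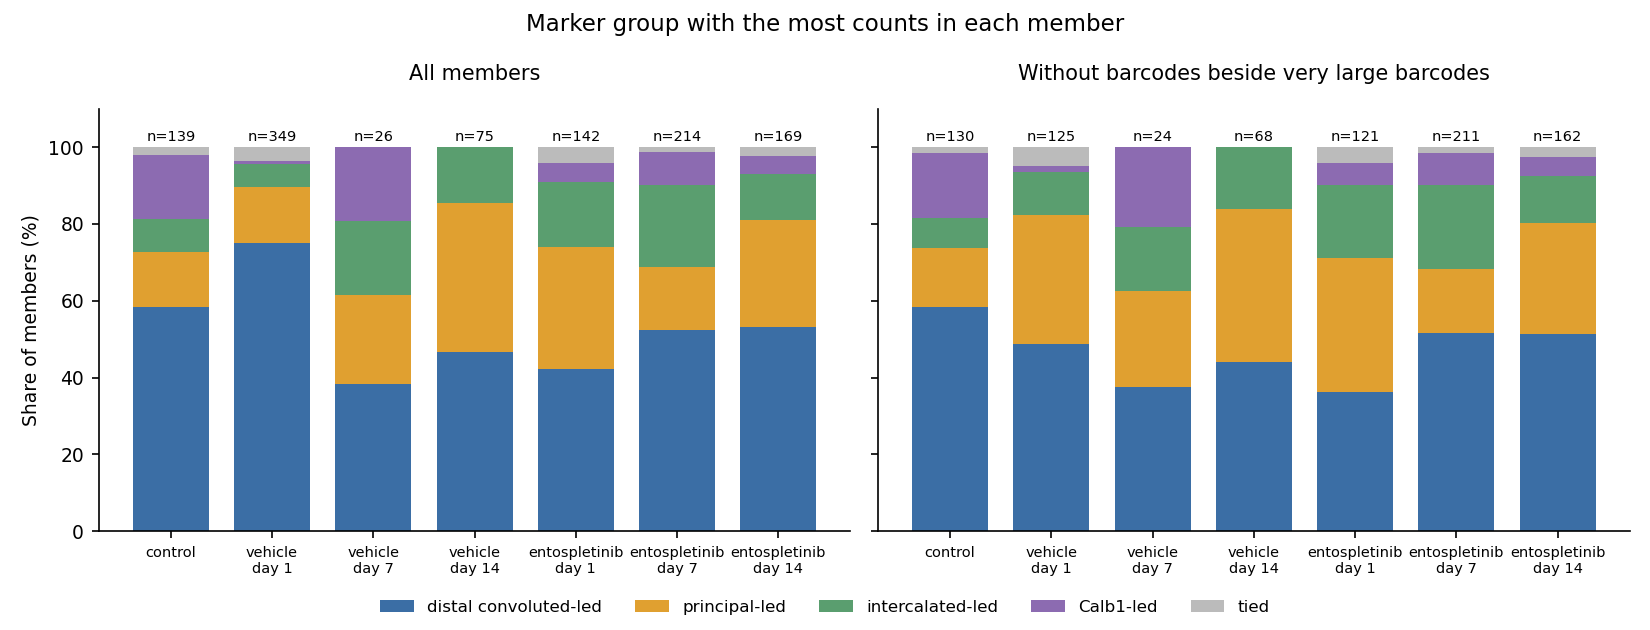
Percent of members led by each marker group in the 7 conditions, for all 1114 members and for the 841 without barcodes beside very large barcodes. The Calb1-led band is 16.5% of control members and absent from vehicle day 14, and the distal convoluted-led band of vehicle day 1 drops from 75.1% to 48.8% between the panels.

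Distal tubule and collecting duct cells were less frequent among sorted cells of vehicle kidneys than of entospletinib kidneys at days 7 and 14. They were 139 of 11205 control cells, or 1.24% (95% interval 1.04 to 1.46%). In vehicle they were 26 of 6110 cells at day 7 (0.426%, 0.278 to 0.623%) and 75 of 17261 at day 14 (0.435%, 0.342 to 0.544%). In entospletinib they were 214 of 7605 cells at day 7 (2.81%, 2.45 to 3.21%) and 169 of 12144 at day 14 (1.39%, 1.19 to 1.62%). The share in entospletinib was thus 6.61-fold that in vehicle at day 7 (log2 ratio 2.73, 95% interval 2.13 to 3.37, SD 0.62 over sublibraries) and 3.20-fold at day 14 (log2 ratio 1.68, 1.28 to 2.09, SD 0.33), in the same direction in 8 of 8 sublibraries at both days. With every cell thinned to 1000 counts, which leaves out cells with fewer, the ratios were 9.16-fold and 9.35-fold. At day 14 this step kept 5547 of the 12144 entospletinib cells and 14587 of the 17261 vehicle cells, with 128 and 36 members. At day 7 it kept all 7605 entospletinib cells and 5162 of the 6110 vehicle cells, with 162 and 12 members. The thinned ratios are thus over unequally reduced sets of cells. Members are found by counts of the marker genes themselves, so a lower level of these genes can lower the share. The median member held 62 marker counts in control, 9, 19 and 11 in vehicle and 12.5, 49 and 22 in entospletinib at days 1, 7 and 14, and fewer cells and lower marker levels per cell cannot be told apart here. Against control, the vehicle share was 2.92-fold lower at day 7 and 2.86-fold lower at day 14, and 5.31- and 5.00-fold lower when thinned. Over tubule cells alone it was not lower than control (log2 ratios 0.23 and 1.43).

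At day 1 the direction depended on the barcodes beside very large barcodes and, for vehicle over control, also on thinning. With them, 349 of 22489 vehicle cells (1.55%) and 142 of 14041 entospletinib cells (1.01%, 0.852 to 1.19%) were members, and the vehicle share ranged from 0.410% to 2.68% over the 8 sublibraries. Without them, the shares were 0.584% (0.487 to 0.696%) in vehicle and 0.875% (0.726 to 1.04%) in entospletinib, beside 1.18% in control. Entospletinib over vehicle had a log2 ratio of -0.62 with these barcodes and 0.58 without (0.21 to 0.95, positive in 7 of 8 sublibraries). That of vehicle over control was 0.32 with them and -1.01 without (-1.38 to -0.64, negative in 8 of 8 sublibraries), and it also turned negative, to -0.73, with all barcodes kept and cells thinned to 1000 counts, a step that also removes cells with fewer counts and left 153 of the 349 vehicle day 1 members. The ratios at days 7 and 14 moved little, to 2.82 and 1.75 for entospletinib over vehicle.

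**Figure D3:**
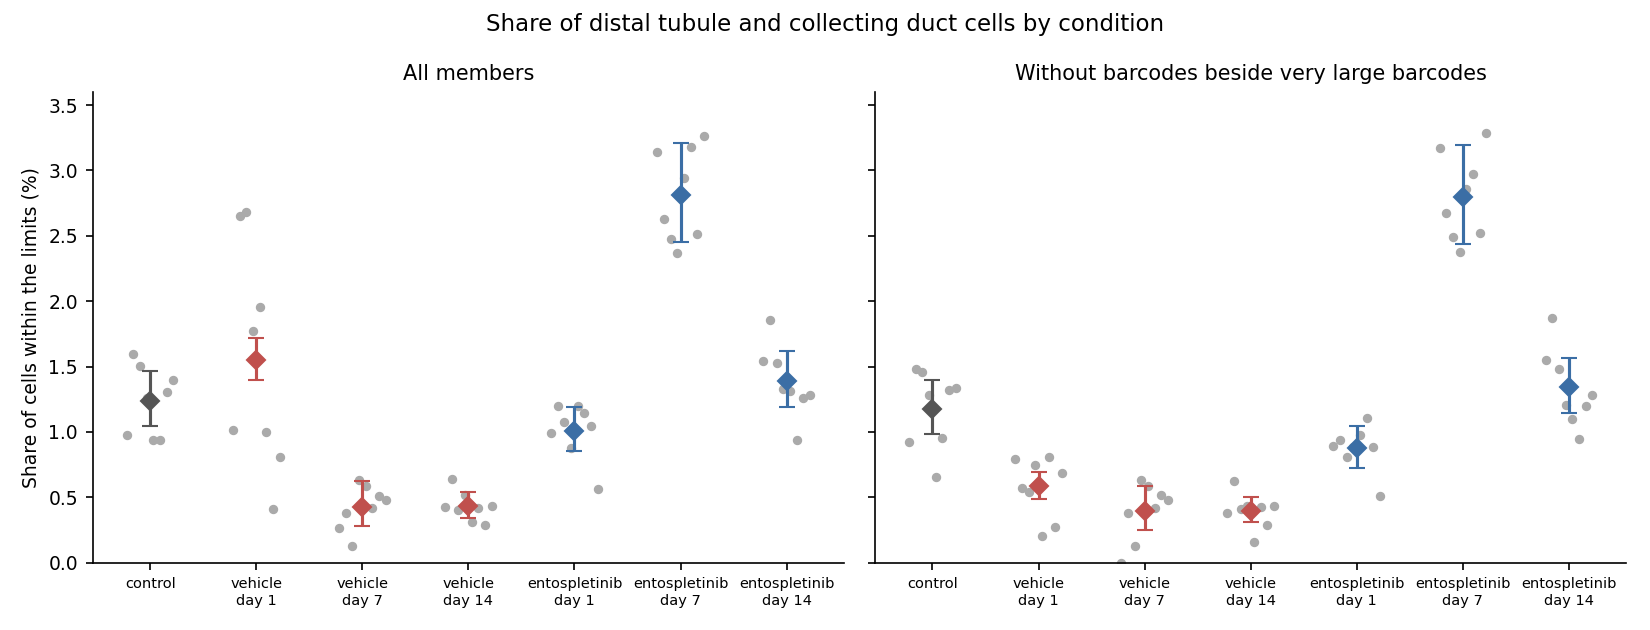
Share of distal tubule and collecting duct cells among all cells within the limits (percent) in the 7 conditions, with exact 95% Clopper-Pearson intervals (diamonds and bars) and the 8 sublibraries (grey dots), for all cells (left) and without barcodes beside very large barcodes (right). Vehicle day 1 is at 1.55% on the left and 0.584% on the right, and entospletinib day 7 is near 2.8% in both.

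Shares of sorted cells also follow how many leukocytes and other tubule cells entered each pool. Counted over tubule cells alone (members, 1155 loop of Henle cells and 1765 proximal tubule cells), members were 12.03% in control, 46.8% (28.3% without the barcodes beside very large barcodes), 14.1% and 32.3% in vehicle, and 30.7%, 30.4% and 30.6% in entospletinib at days 1, 7 and 14. On that denominator entospletinib over vehicle at day 14 had a log2 ratio of -0.078, against 1.68 over all cells, and the day 7 ratio was 1.11. Proximal tubule cells numbered 823 in control and 89 to 264 in the injured conditions, so the 2 denominators give different orders of the conditions. The loop of Henle class was set without regard to Slc12a3 counts, and held 2450 CPM of Slc12a3, against 6995 CPM in members. Whether the epithelium or the number of leukocytes set these shares cannot be told apart in a sort of this kind.

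Gene levels were compared on counts summed over the members of each condition, as centred log2 ratios of CPM, and a gene was called higher or lower at 2-fold or more, with no test. In vehicle day 1 over control, 10.1% of the 3376 genes compared were higher and 7.05% lower. In vehicle day 7 over control these were 8.64% and 6.76% of 3356 genes, and in vehicle day 14 over control 9.36% and 7.91% of 3376. In entospletinib over vehicle they were 2.9% and 3.55% at day 1, 5.89% and 6.1% at day 7 and 6.31% and 6.46% at day 14. Without barcodes beside very large barcodes, the day 1 shares were 3.06% and 3.29% for entospletinib over vehicle and 8.7% and 6.17% for vehicle over control. These comparisons share samples: the 3 vehicle conditions share 1 control pool, and each vehicle pool enters both kinds of comparison, so a low vehicle level raises one ratio and lowers the other. The split of the calls depended on the scaling. With TMM scaling, 75.2% of the calls in entospletinib over vehicle at day 7 were higher in place of 49.1%, and for vehicle over control 27.9% in place of 56.1% at day 7 and 43.1% in place of 54.2% at day 14. For vehicle over control at day 1 the 59.0% higher became 51.7% with TMM scaling and 68.8% with no centring, and for entospletinib over vehicle at day 14 the 49.4% became 46.5% and 53.8%. Day 7 in vehicle has only 26 members, and its gene values are the least certain of those given here.

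Many genes of sodium chloride and magnesium transport in the distal convoluted tubule fell after injury in vehicle. Slc12a3 and Trpm6, which chose the cells, are left out of the counts. Of the 13 other listed genes compared, 7 fell and none rose at day 1 (median log2 ratio -1.05), 3 fell at day 7 (median -0.39) and 7 fell at day 14 (median -1.11), where 7.05%, 6.76% and 7.91% of all genes compared fell. In entospletinib over vehicle at day 14, 5 of the 13 were higher and none lower (median 0.78, with 6.31% of all genes higher), and at days 1 and 7 1 was higher (medians 0.22 and 0.36, with 2.9% and 5.89% of all genes higher). Leaving out the barcodes beside very large barcodes gave 6 lower genes in place of 7 in vehicle day 1.

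The kinase Wnk1 (chr6:119923969-120038672, minus strand, in mm10), whose kidney form in the distal convoluted tubule acts on sodium chloride transport, was at 3577 CPM in control. It was at 737, 1129 and 479 CPM in vehicle at days 1, 7 and 14, and at 489, 2418 and 1536 CPM in entospletinib. It fell below control at every day in vehicle, by 2.40, 1.56 and 2.88 on the log2 scale, and was 3.12-fold higher in entospletinib than in vehicle at day 14 (log2 ratio 1.64, SD 0.67, higher in 8 of 8 sublibraries). In all other cells Wnk1 stayed between 659 and 863 CPM. Klhl3 was at 1148 CPM in control, 207, 844 and 222 CPM in vehicle and 212, 1013 and 665 CPM in entospletinib at days 1, 7 and 14. The 2 day 1 levels of Klhl3 lay together, and at day 14 entospletinib was 2.91-fold above vehicle.

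Egf (chr3:129677565-129755316, minus strand), the epidermal growth factor precursor, had the lowest ratio of the list in vehicle at days 1 and 14. It is not a gene of distal cells alone: the loop of Henle cells of these pools held 3489 CPM, against 261 CPM in members and 513 CPM in distal convoluted-led members. Its level in members was 588 CPM in control, 22.4, 454 and 26.6 CPM in vehicle and 55.6, 489 and 203 CPM in entospletinib at days 1, 7 and 14. The vehicle day 14 level rests on 12 counts, and entospletinib over vehicle there had a log2 ratio of 2.85 (95% counting interval 2.03 to 3.89, higher in all 7 sublibraries with enough counts). Without barcodes beside very large barcodes, Egf was detected in 44.6% of control members, 7.20% of vehicle and 14.9% of entospletinib day 1 members, and 11.8% of vehicle and 23.5% of entospletinib day 14 members. The vehicle day 7 level of Egf was 87.9 CPM in members with no Ptprc count, and 55 of its 70 counts lay in 1 cell. The conditions were in a similar order in loop of Henle cells, with 7863 CPM in control, 133, 2626 and 193 CPM in vehicle and 396, 6172 and 3613 CPM in entospletinib. The loop of Henle levels leave out barcodes beside very large barcodes. The loop of Henle markers outside the selection rule (6 genes, among which Cldn19 was at 0 in every condition) also moved with the transport genes in the members: they summed to 246 CPM in control, 70.5, 97.4 and 64.3 CPM in vehicle and 152, 206 and 154 CPM in entospletinib. Most of the control sum was Ppp1r1a (177 CPM), which was at 279 CPM in distal convoluted-led control members and 455 CPM in control loop of Henle cells. The part of loop of Henle RNA in the levels of Egf and the transport genes was not tested. The magnesium transport gene Cnnm2 was at 635 CPM in control, 178, 156 and 102.05 CPM in vehicle and 199, 682 and 300 CPM in entospletinib. It fell at all 3 days in vehicle and was higher in entospletinib at day 7 (log2 ratio 1.94) and day 14 (1.51), in 8 of 8 sublibraries each. Not all genes of the segment moved at every day: the potassium channel subunit Kcnj16 was at 711 CPM in control and at 723 and 484 CPM in vehicle at days 1 and 14, within 2-fold at both days. In vehicle day 7, however, Kcnj16 fell past 2-fold over all members, though not without barcodes beside very large barcodes.

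The lower levels were also found within 1 group of members. Among distal convoluted-led members alone, without barcodes beside very large barcodes, the log2 ratios of vehicle day 14 over control were -2.53 for Wnk1, -3.74 for Egf and -2.22 for Cnnm2, and those of entospletinib over vehicle at day 14 were 1.82, 2.71 and 1.64.

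Genes of calcium handling in the connecting tubule also fell in vehicle. Of 8 compared, without Calb1, which chose cells, 4 fell in vehicle day 1 (median log2 ratio -1.12, and -0.94 without barcodes beside very large barcodes), 2 in vehicle day 7 (-0.79) and 6 in vehicle day 14 (-2.31), and none rose, where 7.05%, 6.76% and 7.91% of all genes fell. In entospletinib over vehicle, 1 was higher at day 1 (2.9% of all genes), 2 were lower at day 7 (6.1%), and 6 were higher and 1 lower at day 14 (median 1.45, with 6.31% and 6.46% of all genes).

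Slc8a1 (chr17:81373105-81738377, minus strand), the exchanger that returns calcium to the blood, was at 20926 CPM in control. Vehicle members held 2421, 8535 and 1992 CPM at days 1, 7 and 14, and entospletinib members 3021, 17915 and 13004 CPM. Both day 1 levels and the vehicle day 14 level were the low ones, and the 2 later entospletinib levels were the nearest to control. Slc8a1 was 9.40-fold lower in vehicle day 1 than in control (log2 ratio -3.23, SD 0.48, and -3.00 without barcodes beside very large barcodes) and 6.36-fold higher in entospletinib than in vehicle at day 14 (log2 ratio 2.67, SD 0.97, higher in 8 of 8 sublibraries). In distal convoluted-led members alone the latter ratio was 2.91. All other cells held 847 to 1216 CPM of Slc8a1 with no such range.

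The anti-ageing hormone gene Kl (chr5:150952607-150993817, plus strand), whose product is a co-receptor for fibroblast growth factor 23, was at 1298 CPM in control, 148, 565 and 226 CPM in vehicle and 278, 992 and 703 CPM in entospletinib. It fell at all 3 days in vehicle and was 3.02-fold higher in entospletinib at day 14. The vitamin D receptor gene Vdr fell in vehicle at days 1 and 14 (log2 ratios -1.92 and -2.23) and was higher in entospletinib at day 14 (1.30). S100g (chrX:162961992-162964599, minus strand), the vitamin D-dependent calcium binder calbindin-D9k, was at 608 CPM in control, 177, 344 and 48.8 CPM in vehicle and 595, 354 and 517 CPM in entospletinib. It was higher in entospletinib than in vehicle at day 1 (log2 ratio 1.80, and 1.59 without barcodes beside very large barcodes) and at day 14 (3.34, SD 1.60), in 8 of 8 sublibraries each. Klk1 differed from these in time: it was at 1592 CPM in control and 1955 CPM in vehicle day 1, and fell, to 299.5 CPM, only in vehicle day 14, where entospletinib had 1276 CPM (log2 ratio 2.05).

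The calcium channel Trpv5 went the other way at day 14. Its level was 120 CPM in control, 170, 123 and 231 CPM in vehicle and 163, 64.6 and 79.9 CPM in entospletinib at days 1, 7 and 14. Entospletinib over vehicle at day 14 had a log2 ratio of -1.56, lower in 6 of 6 sublibraries with enough counts, and also -1.58 with the groups of members weighted alike. The rise in vehicle day 14 over control, 0.95, was short of 2-fold.

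**Figure D4:**
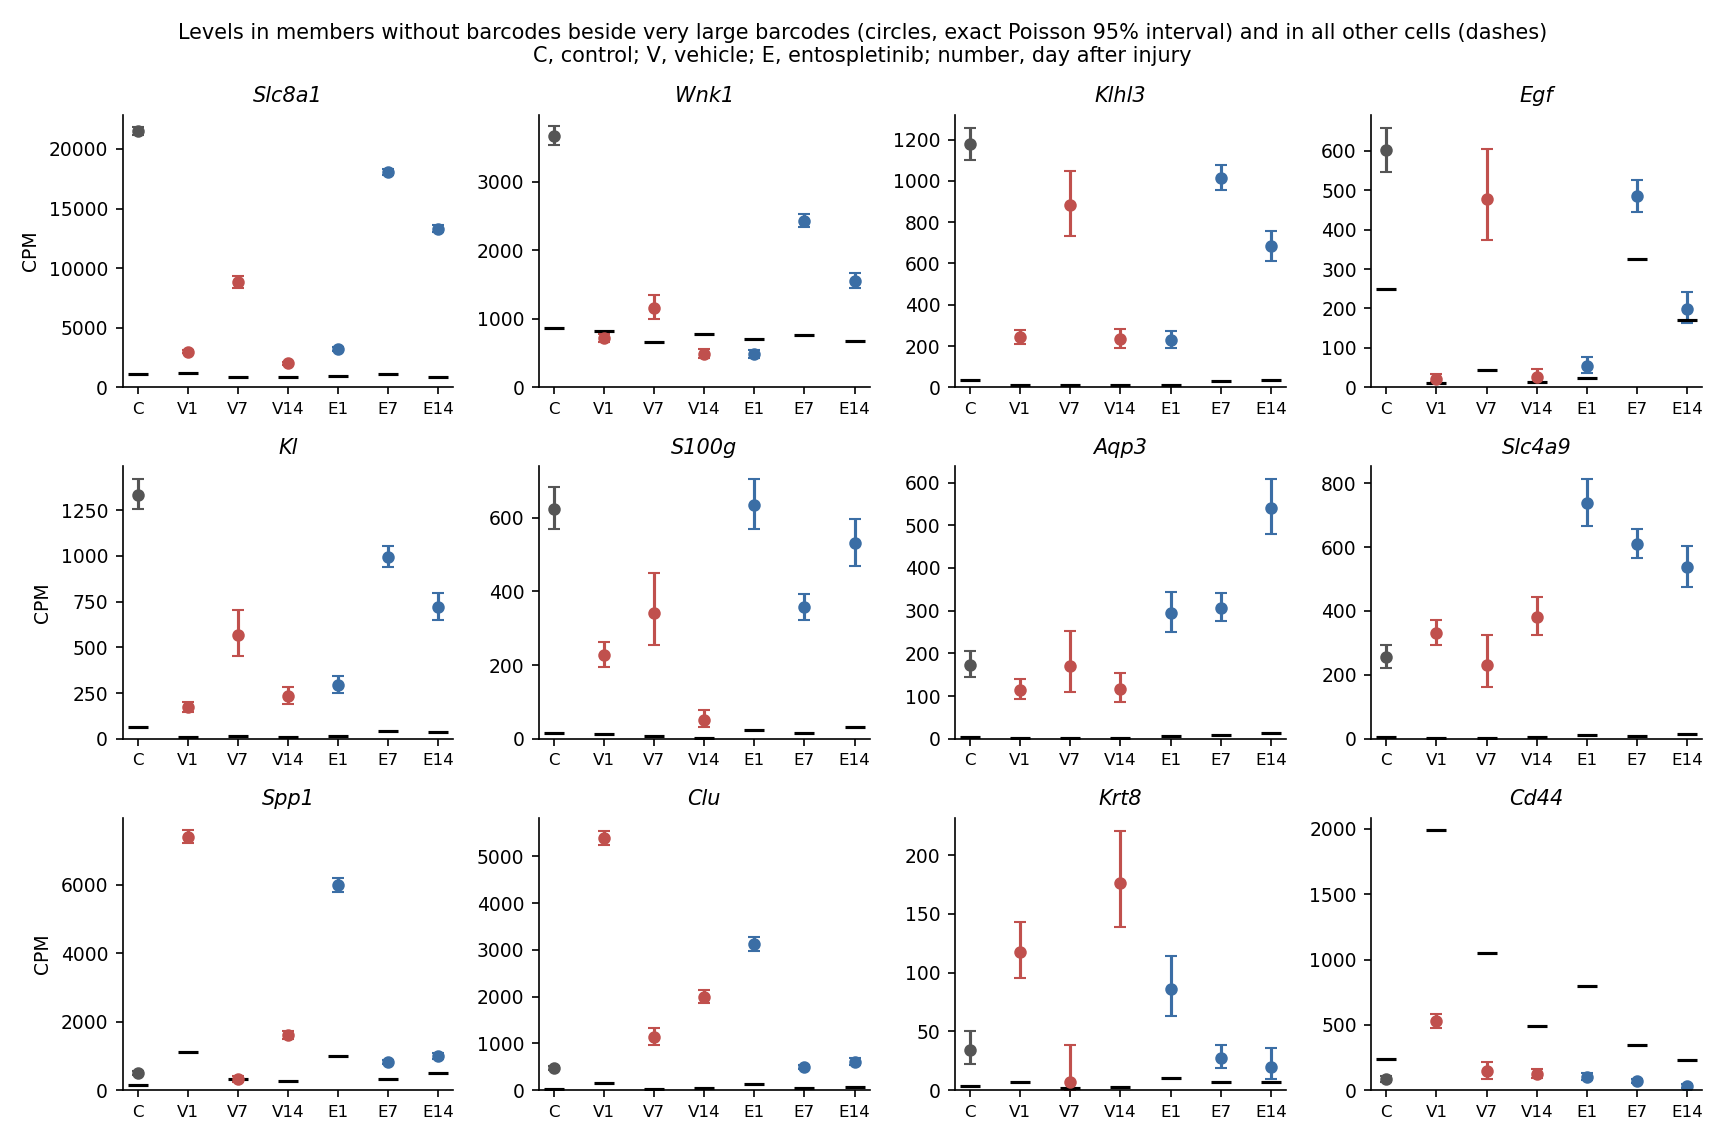
Levels (CPM) of 12 genes in members without barcodes beside very large barcodes (circles, bars are exact Poisson 95% intervals) and in all other cells (dashes), in control (C), vehicle (V) and entospletinib (E) by day. Slc8a1, Wnk1, Klhl3, Egf and Kl are low in V1, E1 and V14 and higher in E7 and E14, while Clu is at 5390 CPM in V1 and 1999.8 CPM in V14 against 476 CPM in C, and Cd44 lies below the other cells in every condition.

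Genes of water and sodium uptake, which mark principal cells, were compared on the sums over all members. Of 9 compared, without the 4 that chose cells, 5 fell in vehicle day 1 (median log2 ratio -1.04), but 2 without the barcodes beside very large barcodes (-0.75). In vehicle day 7, 1 rose and none fell (-0.13), and in vehicle day 14 1 fell and none rose (-0.48), where 7.05%, 6.76% and 7.91% of all genes fell at the 3 days. Principal-led cells were 14.4% of control members and 14.6% and 38.7% of vehicle members at days 1 and 14. These shares are over all members. Without the barcodes beside very large barcodes, the distal convoluted-led share of vehicle day 1 members was lower and the principal-led share higher. Entospletinib over vehicle gave 2 higher genes at day 1 (median 0.59), none at day 7 (0.26) and 2 at day 14 (0.41), and none lower, with 2.9%, 5.89% and 6.31% of all genes higher. The vasopressin-regulated channel Aqp2 chose cells, and Aqp3, the exit path of the same water, did not. Aqp3 was at 172 CPM in control, 89.6, 169 and 111 CPM in vehicle and 273, 305 and 527 CPM in entospletinib at days 1, 7 and 14. It was higher in entospletinib than in vehicle at day 1 (log2 ratio 1.67) and at day 14 (2.20), in 8 of 8 sublibraries each, while principal-led cells were a smaller share of the members in entospletinib at day 14 (27.8%) than in vehicle (38.7%). With the groups weighted alike and without barcodes beside very large barcodes, the ratios were 0.86 and 2.60. The sodium channel subunit Scnn1a and the potassium channel Kcnj1, which secretes potassium, fell in vehicle day 1 (-1.04 and -1.32), and the first was within 2-fold (-0.94) without those barcodes. The aldosterone receptor gene Nr3c2 stayed within 2-fold in all 6 comparisons, from -0.90 in vehicle day 14 over control to 0.41 in entospletinib over vehicle at day 14.

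Genes of acid-base transport in intercalated cells differed at day 1 between vehicle and entospletinib. Of 11 compared, without the 2 that chose cells, 6 were higher in entospletinib and none lower (median log2 ratio 1.09), where 2.9% of all genes were higher, and without barcodes beside very large barcodes it was 5 of 12. They included Slc4a9 (264 CPM in vehicle, 689 in entospletinib, log2 ratio 1.45), Atp6v0d2 (127 and 335 CPM, 1.46), Car2, a carbonic anhydrase (111 and 352 CPM, 1.72), and Insrr (19.1 and 79.2 CPM, 2.10). Intercalated-led cells were 6.02% of vehicle and 16.9% of entospletinib members at day 1. With the groups weighted alike and without barcodes beside very large barcodes the ratios were 0.19 for Slc4a9, 0.38 for Atp6v0d2, 0.53 for Car2 and 0.91 for Insrr, all within 2-fold. Rhcg, which lies in both principal and intercalated cells, fell from 612 CPM in control to 212 CPM in vehicle day 1 and was at 431 CPM in entospletinib day 1, a log2 ratio of 1.09 that was 0.84 without those barcodes. At days 7 and 14, 4 and 1 of the 11 genes were higher in entospletinib, where 5.89% and 6.31% of all genes were. In vehicle over control 4 fell at day 1, 3 rose and 1 fell at day 7, and 1 rose and 1 fell at day 14, where 7.05%, 6.76% and 7.91% of all genes fell and 8.64% and 9.36% rose at the later days. The exchanger Slc4a1 of acid-secreting cells was at 24.4 CPM in vehicle and 93.2 CPM in entospletinib at day 14 (log2 ratio 1.85).

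Genes of tubular injury moved against the distal convoluted transport and calcium genes in vehicle days 1 and 14 over control and in entospletinib over vehicle at day 14. Of 11 compared, 8 rose in vehicle day 1 and none fell (median log2 ratio 1.97, and 2.15 without barcodes beside very large barcodes), 2 rose and 1 fell of 9 in vehicle day 7, and 9 of 11 rose and none fell in vehicle day 14 (1.53), where 10.1%, 8.64% and 9.36% of all genes rose. In entospletinib over vehicle 1 was lower at day 1 (median 0.12), 1 was higher and 3 lower at day 7 (-0.46), and 7 were lower and none higher at day 14 (-1.25), where 3.55%, 6.1% and 6.46% of all genes were lower. The sum of the 27 listed genes was 2316 CPM in control, 16014, 2895 and 5733 CPM in vehicle and 10643, 2604 and 3047 CPM in entospletinib at days 1, 7 and 14. Spp1 and Clu made up most of the sum in vehicle day 1 (8738 and 4757 CPM).

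Spp1 (chr5:104435118-104441050, plus strand), which encodes the secreted phosphoprotein osteopontin, was at 774 CPM in control, 8738, 376 and 1817 CPM in vehicle and 5814, 821 and 1198 CPM in entospletinib. It rose 10.4-fold in vehicle day 1 over control (log2 ratio 3.38, and 3.71 without barcodes beside very large barcodes), and was detected in 96.0% of those vehicle day 1 members and 97.5% of entospletinib day 1 members, against 76.2% in control. At day 14 the entospletinib level was within 2-fold of vehicle (-0.64), but in distal convoluted-led members the ratio was -1.92. Clu (chr14:65968483-65981547, plus strand), the chaperone clusterin of injured tubules, was at 525 CPM in control, 4757, 1155 and 2023 CPM in vehicle and 2975, 485 and 616 CPM in entospletinib. It rose in vehicle at all 3 days, though not at day 7 among distal convoluted-led members (-0.79), and was 3.37-fold lower in entospletinib at day 14, in 8 of 8 sublibraries. All other cells held 27.6 to 150 CPM of Clu.

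The keratins Krt8 and Krt18, which pair to form the filaments of simple epithelia, were at 34.6 and 8.97 CPM in control. In vehicle Krt8 (chr15:101996698-102004482, minus strand) was at 92.1, 6.49 and 171 CPM at days 1, 7 and 14, and in entospletinib at 82.6, 27.1 and 19.0 CPM. Krt18 was at 71.3, 26.0 and 135 CPM in vehicle and 74.1, 22.7 and 36.1 CPM in entospletinib. Both rose at days 1 and 14 in vehicle. In distal convoluted-led members, however, Krt18 was within 2-fold of control in vehicle day 14 (log2 ratio 0.88, against 3.84 over all members). Both were within 2-fold between entospletinib and vehicle at day 1, and at day 14 were lower in entospletinib (log2 ratios -3.14 and -1.92). The day 14 level of Krt8 in entospletinib rests on 10 counts. The tight junction gene Cldn4 rose in vehicle day 1 (log2 ratio 2.53) and day 14 (1.69), and was lower in entospletinib at day 14 (-1.21). The iron binder Lcn2, a urinary marker of kidney injury, was at 7.69 CPM in control, 125, 58.4 and 93.2 CPM in vehicle and 172, 29.7 and 81.8 CPM in entospletinib, and did not differ by 2-fold between entospletinib and vehicle at days 1 and 14. Lcn2 was also at 116 and 121 CPM in all other cells at day 1 of vehicle and entospletinib, where neutrophils are known to carry it.

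**Figure D5:**
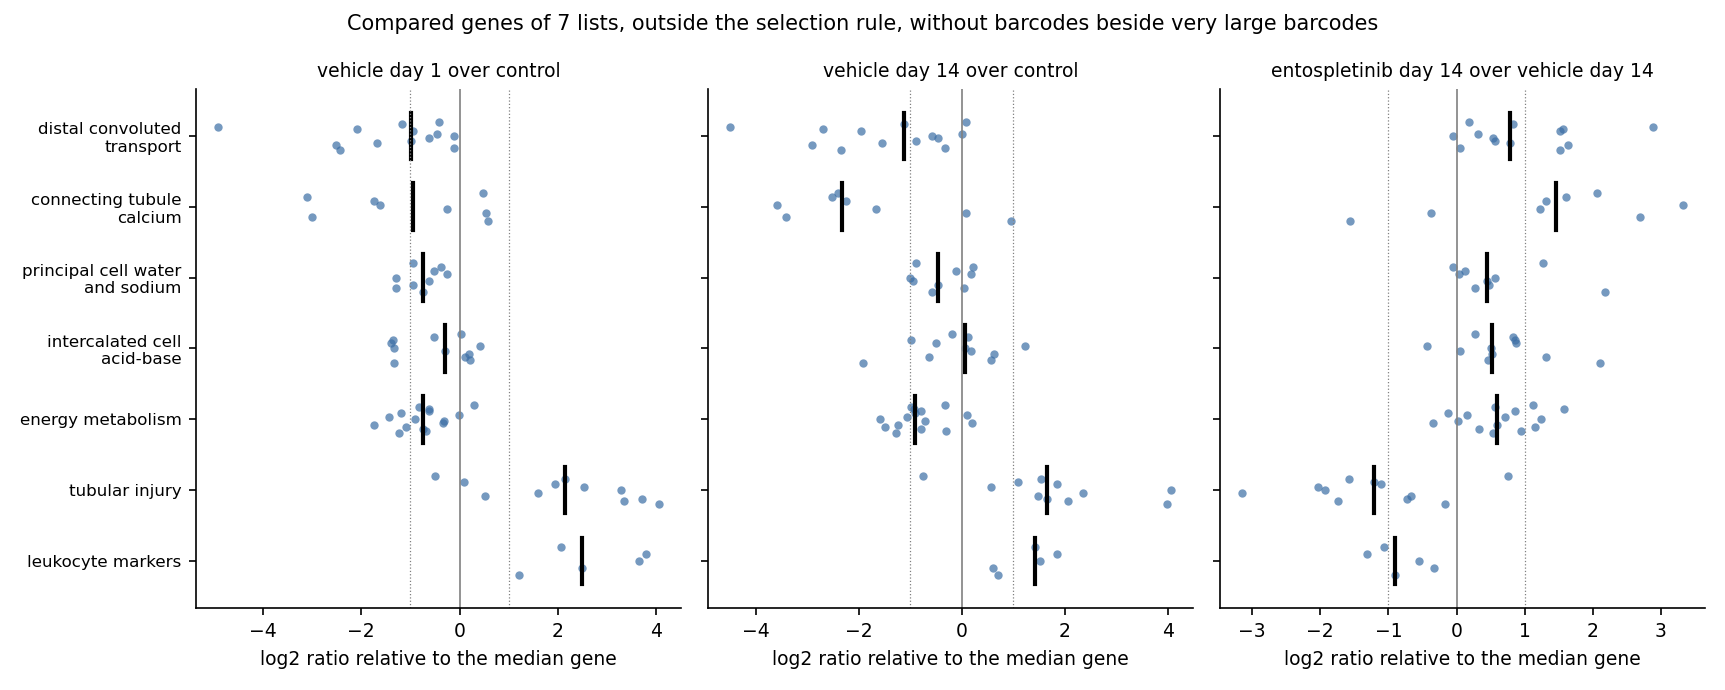
Centred log2 ratios (dots) and their medians (bars) for the genes of 7 lists, without those that chose the cells, in vehicle day 1 over control, vehicle day 14 over control and entospletinib over vehicle at day 14, in members without barcodes beside very large barcodes. Distal convoluted transport and calcium genes lie mostly below 0 in the first 2 panels and above 0 in the third, and injury genes lie mostly on the opposite side.

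A part of the rise in vehicle, most of all at day 1, was in genes of leukocytes. Of the 12 leukocyte markers listed, 5 were compared and all 5 rose in vehicle day 1 (Ptprc, Lyz2, S100a9, Itgam and Lcp1, median log2 ratio 2.84), where 10.1% of all genes rose. A marker low in control can reach the level limit through vehicle day 1, so this count can be partly set by that limit. In vehicle day 7, 3 of 4 rose (median 1.103), and in vehicle day 14 3 of 5 (1.43), where 8.64% and 9.36% of all genes rose. In entospletinib over vehicle, 3 of 5 were lower at day 1, none at day 7 and 1 at day 14. Of all genes, 3.55%, 6.1% and 6.46% were lower. Without barcodes beside very large barcodes, these counts of lower markers were 3, 1 and 2. The summed level of the 12 was 362 CPM in control, 2284, 649 and 679 CPM in vehicle (1823 at day 1 without barcodes beside very large barcodes) and 1196, 482 and 489 CPM in entospletinib (744 at day 1 without those barcodes), and 1 or 2 of the 12 were at 0 in each condition. Ptprc, the pan-leukocyte gene CD45, was detected in 28.8% of control members, 38.7%, 34.6% and 41.3% of vehicle members and 32.4%, 29.9% and 26.0% of entospletinib members. Without barcodes beside very large barcodes it was 27.7% in control, 54.4% (68 of 125) in vehicle day 1 and 26.4% in entospletinib day 1. Called doublets were 14 of the 349 vehicle day 1 members and at most 2 elsewhere.

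The genes that rose most in vehicle day 1 by the fixed rule were of this kind. Hdc, the histamine-forming enzyme, rose from 2 counts in control (2.56 CPM) to 373 CPM, a log2 ratio of 6.75 with a counting interval of 5.20 to 10.1. Il1r2, a decoy receptor for interleukin 1, rose from 10.2 to 658 CPM, and Cxcl2, Ptgs2 and Acod1 rose with log2 ratios of 5.57, 4.58 and 4.49. Each of these 5 was higher in all other cells of vehicle day 1 than in the members, for instance 1076 CPM for Hdc and 1627 CPM for Il1r2. In members with no Ptprc count they were at 60.6 (Hdc), 64.3 (Il1r2), 33.04 (Cxcl2), 51.4 (Ptgs2) and 55.1 CPM (Acod1). These were 214 members of vehicle day 1, most of them beside very large barcodes. Their median was 1121.5 counts, against 1578 in all its members, so a missing Ptprc count also reflects depth. The cytokine Il1b followed them, with 46.1 CPM in control and 1110 CPM in vehicle day 1 members, 251 CPM in those with no Ptprc count, and 3741 CPM in all other cells.

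The adhesion receptor Cd44, which belongs to the injury list and is also a leukocyte gene, was at 85.8 CPM in control, 633, 143 and 133 CPM in vehicle and 147, 68.1 and 43.7 CPM in entospletinib. Its log2 ratio of entospletinib over vehicle at day 1 was -2.04, lower in 8 of 8 sublibraries, and -2.30 without barcodes beside very large barcodes. All other cells of vehicle day 1 held 1988 CPM, and members with no Ptprc count 112 CPM. Syk (chr13:52583173-52648792, plus strand), which encodes the target of entospletinib, was at 35.9 CPM in control members, 236, 45.4 and 129 CPM in vehicle and 74.1, 50.6 and 49.4 CPM in entospletinib. It was lower in members than in all other cells in each condition (348 to 843 CPM in the latter), and in members with no Ptprc count it lay between 10.99 and 55.1 CPM. The same ratio at day 1 was -1.60 for Syk and -1.08 for the Src family kinase Lyn, and -1.63 and -1.21 without those barcodes. At day 14, vehicle members with no Ptprc count held 2131 CPM of Spp1, 2576 CPM of Clu and 192 CPM of Krt8, no less than all vehicle day 14 members. Their day 1 levels in such members are not given here. Of 19 listed signals to leukocytes and antigen presentation genes, 4 or 5 reached the level limit and were compared, a limit that genes low in control can pass through vehicle. All 5 rose in vehicle day 1 (2 without barcodes beside very large barcodes), all 4 in vehicle day 7 and all 5 in vehicle day 14, where 10.1%, 8.64% and 9.36% of all genes rose, and 2, 4 and 3 of 5 were lower in entospletinib than in vehicle at days 1, 7 and 14, where 3.55%, 6.1% and 6.46% of all genes were. In vehicle day 7, H2-Ab1 was at 227 CPM against 49.95 CPM in control, and at 10.99 CPM (1 count) in day 7 members with no Ptprc count, and its ratio turned to -1.09 without called doublets and cells with a Ptprc count. The part of leukocyte RNA in the levels of the other genes was not tested beyond these values.

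Some genes of energy metabolism, which distal cells use to fuel transport, fell in vehicle. Of 15 compared, 6 fell in vehicle day 1 (median log2 ratio -0.92, and 5 with -0.74 without barcodes beside very large barcodes), 3 in day 7 (-0.62) and 5 in day 14 (-0.77), and none rose, where 7.05%, 6.76% and 7.91% of all genes fell. The mitochondrial coactivator Ppargc1a was at 570 CPM in control, 228, 643 and 235 CPM in vehicle and 324, 645 and 342 CPM in entospletinib, and its day 14 ratio between entospletinib and vehicle, 0.50, was within 2-fold. Cpt1a, which admits fatty acids to mitochondria, was at 265 CPM in control and 93.2 CPM in vehicle and 213 CPM in entospletinib at day 14, a log2 ratio of 1.15 between entospletinib and vehicle. Fatty acid oxidation genes Acadm and Hadhb fell in vehicle day 14 (-1.15 and -1.44). In entospletinib over vehicle 2, 2 and 4 of the 15 were higher at days 1, 7 and 14 and none lower, where 2.9%, 5.89% and 6.31% of all genes were higher. They included the respiratory chain gene Cox4i1 at day 1 (1.33) and day 14 (1.60).

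Of 7 steroid-responsive genes compared, none fell in vehicle day 1 (1 without barcodes beside very large barcodes), 2 fell in vehicle day 7 and 2 in vehicle day 14 (6.76% and 7.91% of all genes at the later days), and none rose. Between entospletinib and vehicle none was called at day 1, and 2 were higher and 1 lower at day 7 (5.89% and 6.1% of all genes). At day 14, 3 were higher and none lower (6.31% of all genes higher). The count higher at day 14 was 2 without barcodes beside very large barcodes. Fkbp5, a chaperone induced by glucocorticoids, was at 136 CPM in control, 116, 90.9 and 42.2 CPM in vehicle and 131, 108.3 and 162 CPM in entospletinib. The transcription factor Zbtb16 was at 93.5 CPM in control, 51.4, 19.5 and 26.6 CPM in vehicle and 50.5, 97.8 and 184 CPM in entospletinib. At day 14 the log2 ratios of entospletinib over vehicle were 1.87 and 2.70. All other cells moved the same way for Fkbp5, with 74.0 CPM in vehicle and 476 CPM in entospletinib at day 14, and for Zbtb16, with 81.6 and 250.2 CPM, so the difference was not particular to the distal cells.

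Of 17 epithelial identity genes compared, 2 rose (the claudins Cldn4 and Cldn7) and 2 fell (the transcription factors Emx1 and Sall3) in both vehicle day 1 and vehicle day 14, and 3 rose and 2 fell in vehicle day 7. The shares at days 1 and 14 were near those over all genes (10.1% and 9.36% higher, 7.05% and 7.91% lower). At day 7, 8.64% of all genes rose and 6.76% fell. Of 10 matrix genes compared, 3 rose and 1 fell in vehicle day 1 and 4 rose and none fell in vehicle day 14, Spp1 and Itgb6 among those that rose at both days, where 10.1% and 9.36% of all genes rose and 7.05% and 7.91% fell. None was called in vehicle day 7, and none fell in vehicle day 1 without barcodes beside very large barcodes. Against vehicle, entospletinib had 1 higher at day 7 (5.89% of all genes) and 2 lower at day 14 (6.46%). Itgb6, an integrin chain that activates transforming growth factor beta, was at 55.1 CPM in control, 156 and 139.8 CPM in vehicle at days 1 and 14 and 207 and 79.8 CPM in entospletinib. Of 15 immediate early and stress genes, 2 rose and 2 fell in vehicle day 1, 1 fell in vehicle day 7 and 2 rose in vehicle day 14, near the shares over all genes, and 1 rose in vehicle day 1 without barcodes beside very large barcodes. Against vehicle, entospletinib had 1 higher at day 1 (none without barcodes beside very large barcodes) and 2 lower at day 7, and at day 14 Atf3, Fosb and Klf6 were lower (log2 ratios -1.42, -1.84 and -1.80) and the heat shock gene Hspa1b higher (1.24), with a median of -0.15 over the 15. Of all genes, 2.9% were higher at day 1, 6.1% lower at day 7, and 6.31% higher and 6.46% lower at day 14. Of 13 cell cycle genes only 2 were compared, and no gene of the proximal tubule, endothelial, stromal and podocyte lists reached the level needed, while 2 of the 8 loop of Henle genes did (Umod, used to leave cells out, and Ppp1r1a, which fell in vehicle days 1 and 14 with log2 ratios of -2.56 and -3.06).

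The genes that differed most by the fixed rule in the day 14 comparisons included Egf, S100g, Krt8 and Krt18, described above, and others outside the lists. Esrrb (chr12:86361117-86521628, plus strand), an orphan nuclear receptor that led the distal convoluted group, was at 266 CPM in control, 30.7, 45.4 and 2.22 CPM in vehicle and 21.9, 258 and 137 CPM in entospletinib. The vehicle day 14 level is 1 count, so its ratios are bounded only loosely: -6.31 over control (counting interval -12.2 to -4.40) and 5.34 for entospletinib over vehicle (3.39 to 11.2). Without barcodes beside very large barcodes Esrrb was detected in 41.5% of control members, 1.47% of vehicle day 14 members and 22.2% of entospletinib day 14 members. Prkd1, a kinase, was at 415 CPM in control and 35.5 CPM in vehicle and 232 CPM in entospletinib at day 14. The lipase gene Lpl was at 167 CPM in control, 24.4 CPM in vehicle and 198 CPM in entospletinib at day 14 (log2 ratio 2.92 between entospletinib and vehicle). Abca13, a lipid transporter, fell from 2601 CPM in control to 176 CPM in vehicle day 1 (-4.00).

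Dcdc2a (chr13:25056004-25210706, plus strand), a doublecortin domain gene of cilia and microtubules, had the largest rise by the fixed rule in vehicle day 14 over control. Its level was 11.53 CPM in control, 180, 38.9 and 417 CPM in vehicle and 89.3, 43.7 and 68.4 CPM in entospletinib at days 1, 7 and 14. The rise was 34.8-fold (log2 ratio 5.12, SD 2.09, 8 of 8 sublibraries), and the log2 ratio of entospletinib over vehicle at day 14 was -2.63. The control level rests on 9 counts, and the rule that named the gene required 1 direction over sublibraries. Dcdc2a was detected in 30 of 68 vehicle day 14 members without barcodes beside very large barcodes (44.1%), against 3.08% in control and 8.02% in entospletinib day 14. Samd5 moved in parallel, with 6.40 CPM in control, 158 CPM in vehicle day 14 and 20.9 CPM in entospletinib day 14. Both were under 25 CPM in all other cells, and neither was lower in vehicle day 14 members with no Ptprc count (595 CPM for Dcdc2a and 192 CPM for Samd5).

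At day 1 the largest ratio by the fixed rule between entospletinib and vehicle was not particular to distal cells. Peak1 (chr9:56201126-56418067, minus strand), a pseudokinase of the cytoskeleton, was at 1932 CPM in entospletinib day 1 and at 108.3 to 181 CPM in the other 6 conditions (log2 ratio 3.48), and all other cells held 4320 CPM in entospletinib day 1 and 268 to 446 CPM elsewhere. At day 7 the genes most lower in entospletinib by that rule included Cmss1 (chr16:57302000-57606864, minus strand) and Filip1l (chr16:57353093-57573126, plus strand), which overlap on opposite strands, so the counts of either are uncertain. Cmss1 was at 29311 CPM in vehicle and 5188 CPM in entospletinib at day 7, and all other cells held 30526 and 8410 CPM. Lsamp, a gene of the intercalated-led members, had the highest ratio by that rule at day 7 (815 CPM in entospletinib against 32.5 CPM, or 5 counts, in vehicle). Its log2 ratio was 4.35, and 6.18 without barcodes beside very large barcodes, where 1 vehicle count remained. Intercalated-led cells were 46 of 214 members in entospletinib and 5 of 26 in vehicle at day 7.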

How the data were processed

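The members and the gene lists were chosen with earlier results of these data known. Per the deposited files and the labels, the authors ran the Parse Biosciences data analysis pipeline 1.1 on mm10 and deposited whole-number transcript counts per gene and cell, with a table that assigns each cell to a condition; the annotation release is not given in the sources used here. Kidney cells of 7 conditions, 1 pool of 3 mice each, were barcoded in 8 sublibraries. In all, 388617036 counts over 57010 genes were deposited.

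Members were found by the limits given with the results, and their counts were summed by condition. Comparisons took in genes that averaged 50 CPM or more over the conditions and had 20 counts or more in a pair, expressed as log2 ratios of CPM, with 0.5 counts added and centred on the median gene. A gene was called at a centred log2 ratio of at least 1 in size. With 1 pool per condition no test was possible. Shares carry exact Clopper-Pearson and levels exact Poisson 95% intervals, which cover counting error only, and counts limit the precision of both. Named genes were the members of 19 gene lists (266 genes), the 5 genes with the largest ratio in each direction and comparison (at least 50 counts, 1 direction in every sublibrary with at least 5 counts, at least 4 such sublibraries, outside the selection rule), the 20 with the highest ratio of members over other tubule cells, and the 5 leading each group of members. Other genes named were chosen after their values were seen.

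Doublets were called by comparison with simulated pairs (30 neighbours, simulated share above 0.75), which marked 3.66% of cells, and were kept. Alternatives were TMM scaling, no centring, other level limits, other cell limits, a lead of at least 2 counts for the marker-led groups, thinning to 1000 counts, leaving out doublets and cells with Ptprc, leaving out each sublibrary, tubule cells as the denominator, equal weights of the distal convoluted-, principal- and intercalated-led members, and, added after seeing the data, leaving out barcodes beside very large barcodes, alone or with the others. The procedure was run on simulated Poisson counts drawn from a common profile with known fold changes. The simulation had no spread between cells or pools, so it does not measure the error of the calls in these data. Coordinates are from GENCODE M21. Python 3.11.15, numpy 2.4.6, scipy 1.17.1, pandas 2.3.3, scikit-learn 1.9.0, matplotlib 3.10.9, R 4.3.3 and edgeR 4.0.16 (for TMM factors) were used. A few listed genes are not reported here.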

Additional observations from a re-analysis of the deposited data

Results flagged for a closer look

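Outside the cell limits, in barcodes that no comparison used, 1001 of 29426 barcodes (3.40%) met the marker rule for distal tubule and collecting duct cells. Of these, 946 had at least 25% mitochondrial counts, 302 had no more than 300 genes and 50 had at least 20000 counts. They numbered 358 in control, 89, 81 and 32 in vehicle and 62, 260 and 119 in entospletinib at days 1, 7 and 14, against 139, 349, 26, 75, 142, 214 and 169 members in the same order. Their part in the shares was not tested.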

How the results depend on the processing

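One pool per condition, 26 members in vehicle day 7 and counts of 1 to 12 for several genes limit what can be read here. No paired analysis of replicates was possible because no condition had a second pool, and no result comes from a test. Comparisons within sublibraries, which are portions of the same pools, show technical spread only. Of the 229 gene ratios recomputed, 211 stayed within their counting intervals without barcodes beside very large barcodes, 221 with TMM scaling, 224 without centring, 164 with the groups of members weighted alike (150 also without those barcodes) and 134 without called doublets and cells with a Ptprc count. Leaving out each sublibrary moved 109 gene ratios out of theirs and kept 1723. Of 35 shares of the marker-led groups, a lead of at least 2 counts moved 8, of which 5 were the ties that it removes. The ratio of H2-Ab1 in vehicle day 7 over control turned to -1.09 without called doublets and cells with a Ptprc count. That of Hsd11b2 in vehicle day 14 over control turned to -0.13 with the groups weighted alike and to -0.089 also without barcodes beside very large barcodes. The causes of the changes were not tested.

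Shares of cells moved as follows. Without barcodes beside very large barcodes vehicle day 1 was 0.584%. With at least 5 marker counts vehicle days 1 and 14 were 1.21% and 0.324%, and entospletinib days 1 and 14 were 0.805% and 1.15%. With a limit on ribosomal protein genes entospletinib days 1 and 14 were 1.30% and 1.77%. With more than 500 genes vehicle day 1 was 1.35% and entospletinib day 14 2.15%. Thinned to 1000 counts, vehicle was 0.743%, 0.232% and 0.247% and entospletinib 0.665%, 2.13% and 2.31% at days 1, 7 and 14, and without barcodes beside very large barcodes these were 0.292%, 0.234%, 0.221%, 0.622%, 2.11% and 2.29%. Without members with a Ptprc count, control was 0.884%, vehicle days 1 and 14 0.952% and 0.255%, and entospletinib 0.684%, 1.97% and 1.03%. Leaving out each sublibrary gave 1.38% to 1.71% for vehicle day 1.

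Log2 ratios of shares moved as follows. Without barcodes beside very large barcodes, entospletinib over vehicle at day 1 turned to 0.58 and vehicle day 1 over control to -1.01. With more than 500 genes the day 14 ratio of entospletinib over vehicle was 2.16. Thinned to 1000 counts, entospletinib over vehicle was -0.16 at day 1 and 3.22 at day 14, and vehicle over control -0.73, -2.41 and -2.32 at days 1, 7 and 14. Thinned and without those barcodes, entospletinib over vehicle was 1.09 at day 1 and 3.38 at day 14, and vehicle over control -2.01, -2.33 and -2.41. Over tubule cells, entospletinib over vehicle was 1.11 at day 7 and -0.078 at day 14, and vehicle over control 1.96, 0.23 and 1.43. Over tubule cells without those barcodes, entospletinib over vehicle was 0.037, 1.15 and -0.082, and vehicle over control 1.28, 0.24 and 1.47.

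Numbers of genes higher and lower moved with the level limit. At a mean of at least 100 CPM they were 51 and 44, 45 and 63, and 108 and 79 for entospletinib over vehicle at days 1, 7 and 14, and 150 and 123, 109 and 63, and 127 and 145 for vehicle over control. With no level limit they were 469 and 638, 909 and 707, 553 and 558, 1257 and 776, 600 and 669, and 765 and 710 in the same order. Without called doublets and cells with a Ptprc count, entospletinib over vehicle had 164 higher and 78 lower genes at day 1 and 304 higher at day 7. With the groups weighted alike, 79 genes were lower in entospletinib over vehicle at day 1, and, also without barcodes beside very large barcodes, 357 were higher at day 7 and 365 were lower in vehicle day 7 over control. TMM scaling gave 345 higher and 114 lower genes in entospletinib over vehicle at day 7 and 155 higher and 401 lower in vehicle day 7 over control, and no centring gave 136 lower genes in the former.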
